A study of Mus musculus with 12 samples.

Results

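The enzymes of glycolysis were followed in mouse oocytes through 10 genes that together cover most steps of the pathway, namely Hk1, Gpi1, Pfkp, Aldoa, Tpi1, Gapdh, Pgk1, Pgam1, Eno1 and Ldhb, out of 23230 genes in the deposited table. They were chosen by the FPKM values of Gapdh alone, which had been seen at higher levels in Zar1/2-null oocytes at every stage of these same libraries, and the question was whether the rest of the pathway did the same. The values of Gapdh that compare genotypes are therefore given as a description, without a test. Of the 10 genes, 9 reached 1 FPKM, a fragment count normalised to exon length and to the size of the library, in at least 1 library and entered the tests together with all 11502 genes that did so. Hk1 did not.

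The libraries came from wild-type (WT) females and from females in which Zar1 and its homolog Zar2 (listed as Zar1l) had both been knocked out with CRISPR/Cas9, and no further treatment of the oocytes was recorded. All mice were of a C57BL6/ICR hybrid background. Oocytes were taken while growing (females of 13.5 days by the labels, whereas the methods of the study give a slightly younger age), as fully grown germinal vesicle (GV) oocytes (21-day females, 44 h after PMSG) and after ovulation, labelled MII (16 h after hCG). Each of the 6 groups had 2 libraries, each made from 10 pooled oocytes, and nothing in the labels says whether the 2 came from separate females, so p-values measure only the spread between these libraries, which may be technical. The deletion is constitutive and limits the group labelled MII as a model of that stage, because the study describes null oocytes from the oviduct as arrested before the end of meiosis I.

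Glycolysis splits glucose into pyruvate. Hexokinase phosphorylates glucose, glucose-6-phosphate isomerase (Gpi1) and phosphofructokinase (Pfkp) prepare it, and aldolase (Aldoa) and triosephosphate isomerase (Tpi1) split it into triose phosphates. Glyceraldehyde-3-phosphate dehydrogenase (Gapdh), phosphoglycerate kinase (Pgk1), phosphoglycerate mutase (Pgam1) and enolase (Eno1) then carry the triose towards pyruvate, and lactate dehydrogenase (Ldhb) interconverts pyruvate and lactate. Mouse oocytes are known for a low glycolytic capacity of their own and for living on pyruvate that the surrounding cumulus cells supply, and the H subunit encoded by Ldhb is the usual lactate dehydrogenase subunit in them. The study detected new transcription in GV oocytes with a non-surrounded nucleolus but not with a surrounded one. No sorting of the GV pools by this trait was recorded. Once transcription has stopped, a level that changes between the GV stage and ovulation is set by what happens to stored RNA. The study also reports that poly(A) tails of some stored mRNAs lengthened at maturation in WT but not in null oocytes. RNA was primed with oligo-dT, so differences at MII may reflect tail length as well as RNA amount, which cannot be told apart.

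The values are FPKM multiplied by a factor from the ERCC spike-in RNA, which is meant to make them stand for RNA per 10 oocytes. A lower level could reflect less captured material as well as less RNA per oocyte, which cannot be told apart. The factor was 1 in WT growing libraries and between 0.225 and 0.862 in the others. It appears to have been taken against the WT growing library of the same replicate number. The WT GV libraries had factors of 0.836 and 0.697, although the study lists the same ERCC percentage for both. Replicates 1 and 2 of a group may thus lie on different scales. With this scaling the median log2 difference of all tested genes between null and WT was -0.16 in growing, -0.38 in GV and 0.06 in MII oocytes, and without it 0.08, -0.03 and -0.01. Differences below should be read against these medians. Zar1l averaged 15.3 FPKM in null against 642 FPKM in WT growing oocytes and 20.3 against 519 FPKM at GV, whereas Zar1 reads remained in the null libraries at 433 against 664 FPKM in growing and 192 against 78.0 FPKM in MII oocytes. All 12 oocyte markers were above 0 in every library. They reached 1 FPKM in every group except for Figla in WT MII, at 0.276 and 0.687 FPKM against a mean of 17.1 FPKM in null MII. The 18 granulosa and cumulus markers summed to 30.5 to 34.6 FPKM in WT growing, 16.4 to 24.2 in null growing, 17.7 to 20.6 in WT GV, 14.1 to 15.9 in null GV, 5.31 to 5.64 in WT MII and 7.43 to 8.60 in null MII libraries, mostly from Cyp19a1 and Nr5a2, and their part in the results was not tested. The cumulus genes Ptx3, Areg and Ereg were listed at 0 in every library. Has2, Ptgs2 and Tnfaip6 were above 0 in 8, 9 and 8 libraries, at up to 0.145, 0.131 and 0.419 FPKM. The blood and stroma lists summed to at most 1.42 FPKM.

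In WT oocytes Ldhb stood far above every other gene of the 10. Ldhb was listed at 4491 and 4630.4 FPKM in the growing libraries, 3205 and 2701 at GV, and 273 and 257 at MII. The gene ranked between 4th and 8th of all 23230 genes in the growing and GV libraries, and 64th and 61st in the MII libraries. Among the others the WT growing level fell in the order Aldoa (104 FPKM), Tpi1 (68.4), Gapdh (56.4), Gpi1 (50.1), Pgk1 (40.9), Eno1 (16.0), Pgam1 (8.14) and Pfkp (6.61), and in this order only Gapdh and Gpi1 overlapped between their libraries. Hk1 lay between 0 and 0.0559 FPKM and was listed at 0 in 6 of 12 libraries. In WT MII oocytes the enzymes apart from Ldhb and Hk1 lay between 0.109 FPKM for Pfkp and 3.61 FPKM for Gapdh, and Gapdh, Aldoa and Pgk1 could not be ordered because neighbouring genes overlapped.

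**Figure D1:**
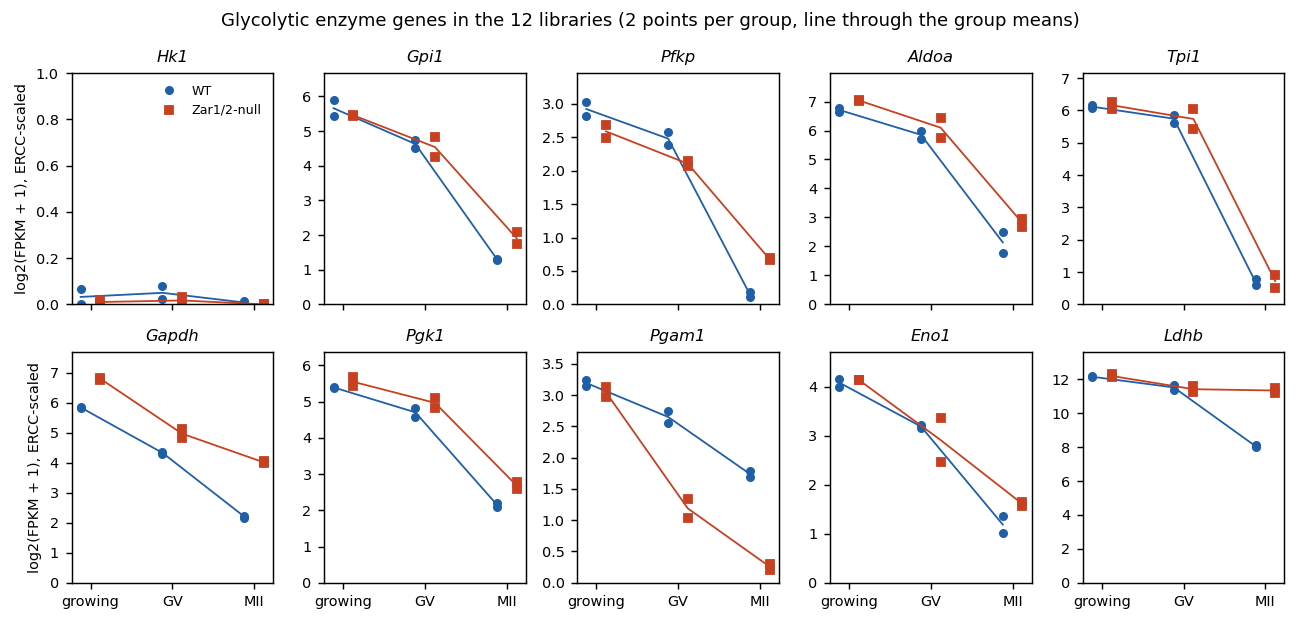
Level of each of the 10 genes on the log2(FPKM + 1) scale, ERCC-scaled, by stage, with WT as blue circles and Zar1/2-null as red squares, 2 libraries per group and a line through the means of the log values. The y axes differ between panels. The Ldhb lines part only at MII, the Pgam1 lines part from GV on, and Hk1 stays below 0.1 throughout.

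Gapdh, the gene behind the choice of the pathway, was listed at 55.8 and 56.9 FPKM in WT and 108 and 113 FPKM in null growing oocytes. At GV the values were 19.6 and 18.6 FPKM in WT against 27.3 and 33.5 FPKM in null oocytes. At MII they were 3.51 and 3.71 FPKM against 15.5 and 14.8 FPKM. The null libraries lay above the WT libraries at each stage, by 1.96-fold, 1.59-fold and 4.19-fold on the means, and without the ERCC factor the log2 differences were 1.24, 1.09 and 1.77 in the same order of stages.

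In growing oocytes none of the other 8 tested enzymes passed the test in either direction, where 10.6% of all genes were called higher and 24.4% lower in null oocytes (limma on log2(FPKM + 1), Benjamini-Hochberg adjusted p under 0.05). Their median log2 difference was 0.04. Aldoa came to 131 and 129.6 FPKM in null against 99.1 and 109 FPKM in WT oocytes, which did not overlap but gave a log2 difference of 0.33 ± 0.26 (SE) with a limma adjusted p of 0.35. Pfkp, at 4.65 and 5.42 FPKM against 6.07 and 7.15 FPKM, gave -0.33 ± 0.13 with a limma adjusted p of 0.075. Non-overlapping libraries were seen for 2 of the 8 genes in each direction, against 22.4% of all genes higher and 47.4% lower. Gpi1, Tpi1, Pgam1, Eno1, Pgk1 and Ldhb gave log2 differences between -0.20 and 0.16. Left unscaled, that is without the ERCC factor, Pgk1 at 0.44 ± 0.12 (limma adjusted p = 0.024) and Ldhb at 0.33 ± 0.11 (limma adjusted p = 0.0498) passed as higher, against 14.9% of all genes.

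At GV the only 2 enzymes that passed were Pgam1 and Pfkp, both lower in null oocytes, where 40.6% of all genes were called lower and 2.83% higher. Pgam1 was listed at 4.89 and 5.68 FPKM in WT and at 1.05 and 1.53 FPKM in null oocytes. These levels rest on 145 windows of 50 bases, as 91.9% of its windows occur elsewhere in the genome. The null libraries held less than any WT library, 4.09-fold less on the means, with a log2 difference of -1.46 ± 0.14 (limma adjusted p = 4.2e-05), and 361 of 11502 genes had a more negative difference. Pgam1 kept the call at GV in every alternative in which it was tested. The genotype difference of Pgam1 was itself more negative at GV than in growing oocytes, by -1.31 ± 0.20 (limma adjusted p = 0.0033, where 11.3% of all genes were called lower in this test).

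Pfkp, which commits sugar to glycolysis, was listed at 4.95 and 4.24 FPKM in WT and at 3.42 and 3.19 FPKM in null GV oocytes. Its log2 difference of -0.38 ± 0.13 (limma adjusted p = 0.042) equalled the median of all genes. Left unscaled it was -0.02 with a limma adjusted p of 0.97, and with scaling to the median gene it turned to 0.10, so the call for Pfkp at this stage depends on the scaling. It was also lost without WT GV replicate 1, either null GV library or any MII library. The remaining 6 enzymes lay between -0.28 for Eno1 and 0.26 for Pgk1 and did not pass, and the libraries of each overlapped between genotypes. When left unscaled, Pgk1 was higher at 0.71 ± 0.12 (limma adjusted p = 0.0027) and Ldhb at 0.35 ± 0.11 (limma adjusted p = 0.0497), where 7.19% of all genes were called higher, whereas ERCC-scaled Ldhb was at -0.10. For none of the 8 enzymes did both null libraries lie above both WT libraries, and for Pgam1 and Pfkp they lay below, which held for 6.79% and 63.6% of all genes.

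At MII 3 of the 8 enzymes were called higher in null oocytes (Ldhb, Pfkp and Pgk1) and Pgam1 was called lower, where 21.5% of all genes were called higher and 10.3% lower. The median of the 8 differences was 0.53 and that of all genes 0.06. Among the 5966 genes whose mean reached 5 FPKM, 2003 were called higher and 920 lower, with a median of 0.16. For 6 of the 8 genes both null libraries lay above both WT libraries, which held for 43.5% of all genes, and for Pgam1 they lay below, which held for 27.8%. The count of 3 higher was smaller without WT MII replicate 1 or null MII replicate 1, and larger without either null GV library. The count over all genes moved the same way in each case.

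Ldhb, the heart-type subunit of lactate dehydrogenase, was listed at 273 and 257 FPKM in WT MII oocytes and at 2834 and 2372 FPKM in null oocytes. The null level was 9.82-fold the WT level, the log2 difference was 3.29 ± 0.17 (limma adjusted p = 7e-08), and only 201 of 11502 genes had a larger difference. Left unscaled it was 3.05 ± 0.11, and the call for Ldhb held under every alternative tried. The genotype difference of Ldhb was larger at MII than at GV by 3.39 ± 0.25 (limma adjusted p = 1.8e-06, where 33.9% of all genes were called higher in this test).

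Pgam1, whose level rests on few windows as stated for GV, went the other way. It was listed at 2.22 and 2.46 FPKM in WT and at 0.156 and 0.238 FPKM in null MII oocytes, with a log2 difference of -1.48 ± 0.14 (limma adjusted p = 1.1e-05). The null level was 11.9-fold lower on the means, and 107 genes had a more negative difference. Because of the added 1 FPKM the log2 difference understates this ratio. The call was lost under a 3-fold rule on group means, with means below 1 FPKM set to 1.

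Pfkp was listed at 0.0752 and 0.142 FPKM in WT and at 0.619 and 0.580 FPKM in null MII oocytes, all below 1 FPKM. The null libraries lay above the WT libraries, with a log2 difference of 0.53 ± 0.13 (limma adjusted p = 0.010), and the genotype difference of Pfkp was larger at MII than at GV by 0.90 ± 0.19 (limma adjusted p = 0.0042). Pgk1, which yields the first ATP of the pathway, was listed at 3.58 and 3.29 FPKM in WT and at 5.81 and 5.03 FPKM in null oocytes, a log2 difference of 0.53 ± 0.16 (limma adjusted p = 0.024). Both calls were fragile: that of Pfkp was lost without WT MII replicate 1 or either null MII library, and that of Pgk1 without either WT MII library, without null MII replicate 1 and with scaling to the median gene.

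The remaining enzymes at MII did not pass. Gpi1 at 3.23 and 2.32 FPKM in null against 1.49 and 1.42 FPKM in WT oocytes gave 0.61 ± 0.22 with a limma adjusted p of 0.051, and without the ERCC factor it passed at 0.024, where 24.6% of all genes were called higher. Aldoa at 6.73 and 5.35 FPKM against 2.46 and 4.62 FPKM gave 0.67 ± 0.26 with a limma adjusted p of 0.070. Eno1 gave 0.42 ± 0.24. Tpi1, at 0.892 and 0.435 FPKM in null against 0.501 and 0.719 FPKM in WT oocytes, overlapped between genotypes and gave 0.04 ± 0.21, which turned negative without the ERCC factor at -0.12. The median gene and the 8 enzymes are set side by side in the plot of genotype differences.

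**Figure D2:**
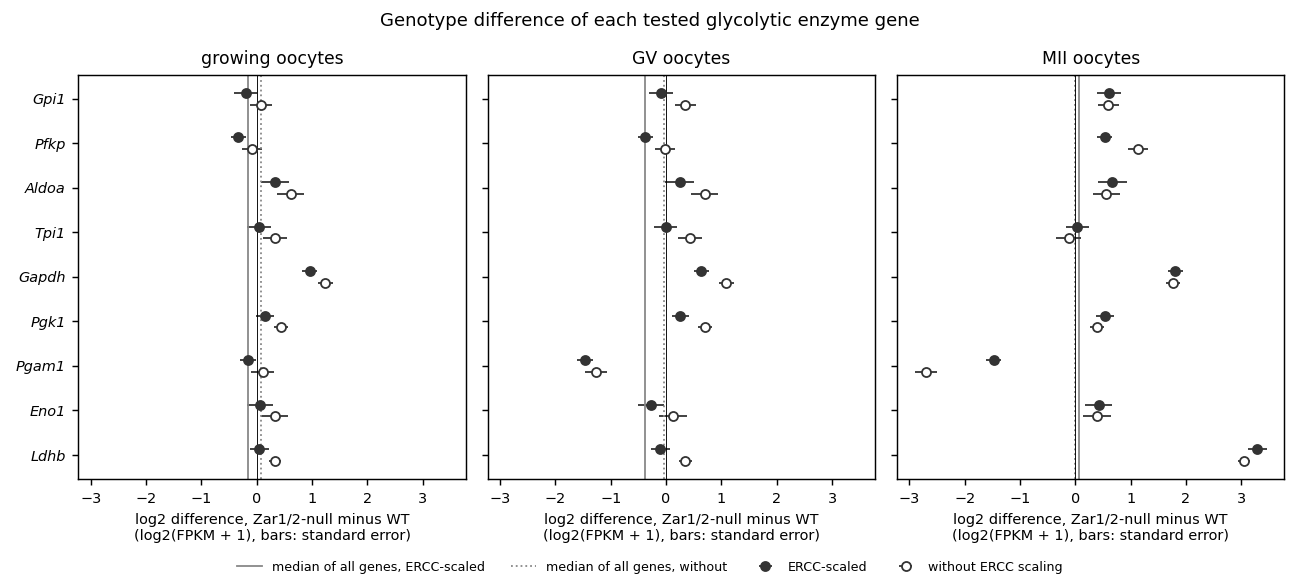
Difference between Zar1/2-null and WT oocytes in log2(FPKM + 1) for the 9 tested genes at each stage, with standard errors from limma. Filled points are ERCC-scaled and open points are without that factor, and the grey lines give the matching medians of all genes. Ldhb at 3.29 and Pgam1 at -1.48 stand furthest apart at MII, while at GV the points of Gpi1, Tpi1, Eno1 and Ldhb cross 0 with the scaling. Gapdh is plotted as a description.

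Between growing and GV oocytes all 9 genes had lower ERCC-scaled levels at GV in both genotypes, and 8 of 9 passed in each, with Tpi1, whose difference turned positive without the ERCC factor, as the exception, where 28.7% of all genes were called lower in WT and 55.9% in null oocytes. The median log2 difference of the 9 genes was -0.69 in WT and -0.92 in null oocytes, against -0.29 and -0.50 for all genes. Gapdh fell the most in WT, to 0.339 of its growing level, with a log2 difference of -1.51 ± 0.14 (limma adjusted p = 0.00017). In null oocytes Pgam1 fell to 0.178 and Gapdh to 0.276 of their growing levels. In unscaled FPKM only Gapdh in WT (1 of 9) and Gapdh, Pgam1 and Eno1 in null oocytes (3 of 9) still passed. Of all 11502 genes, 372 were then called lower in WT and 2455 in null oocytes. The ERCC-scaled count in WT oocytes was smaller without any of the WT growing or WT GV libraries, most of all without replicate 2 of either group. The count over all genes was smaller in each of these fits too.

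From GV to MII, the step at which stored maternal RNA is normally cleared, all 9 genes fell in WT oocytes, as did 93.4% of all genes, although Pgam1 turned to higher without the ERCC factor. The median log2 difference of the 9 genes was -2.55 in WT and -1.43 in null oocytes, against -1.28 and -0.72 for all genes. It was -2.03 and -1.19 for the 5966 genes whose mean reached 5 FPKM. The level left at MII in WT oocytes ranged from 1.16% of the GV level for Tpi1 to 44.2% for Pgam1, and it was 2.36% for Pfkp, 6.13% for Gpi1, 6.21% for Aldoa, 8.98% for Ldhb, 13.7% for Pgk1, 16.0% for Eno1 and 18.9% for Gapdh. The median of the 4914 genes with at least 10 FPKM at GV was 18.8%. In null oocytes 8 of 9 fell, as did 68.7% of all genes, Gapdh only with the ERCC factor, and Ldhb was the exception. Its level at MII was 94.5% of that at GV, with 77.2% to 116% over the 4 pairs of libraries, and the log2 difference was -0.08 ± 0.17 (limma adjusted p = 0.71). The WT difference for Ldhb was -3.47 ± 0.17 (limma adjusted p = 6.2e-09). Without the ERCC factor the null difference of Ldhb turned positive, 0.98 ± 0.11 (limma adjusted p = 1.9e-05), while that in WT stayed negative at -1.72 ± 0.11.

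The other enzymes kept less of their GV level in null oocytes than Ldhb. Tpi1 fell to 1.24% of its GV level in null oocytes, close to the 1.16% of WT oocytes, with log2 differences of -5.01 ± 0.21 and -5.06 ± 0.21 (limma adjusted p = 6.9e-09 and 1.7e-09). Only 45 of 11502 genes had a more negative difference than Tpi1 in null oocytes. The genotype difference of Tpi1 shifted by 0.05 ± 0.30 between GV and MII (limma adjusted p = 0.92). Aldoa kept 8.71% and Gpi1 12.2% of the GV level in null oocytes, both below the null median of 36.0% over 4011 genes. Gapdh kept 49.7% in null against 18.9% in WT oocytes. Pgam1 kept 15.3% in null against 44.2% in WT oocytes, with log2 differences of -0.93 ± 0.14 and -0.91 ± 0.14, and without the ERCC factor the WT difference of Pgam1 turned to 0.52 ± 0.20 (limma adjusted p = 0.039). The genotype difference of Pgam1 shifted between GV and MII by -0.02 ± 0.20 (limma adjusted p = 0.95), and in unscaled FPKM by -1.44 ± 0.28 (limma adjusted p = 0.0035). Pgam1 averaged 0.197 FPKM in null MII oocytes, so the added 1 FPKM understates its fall there and the shift. With a pseudocount of 0.1 FPKM and the ERCC factor kept, the shift of Pgam1 was called lower. These comparisons share the GV libraries with the genotype comparison at GV.

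**Figure D3:**
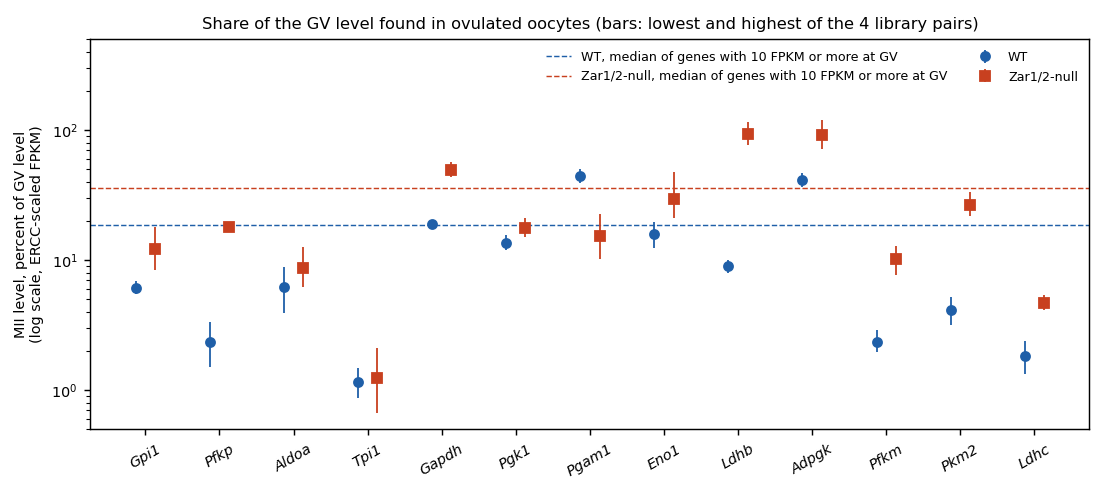
Level in MII oocytes as a percentage of the level in GV oocytes, on a log axis, ERCC-scaled, for the 9 tested genes and 4 other enzymes of the pathway. Points are ratios of group means, bars run from the lowest to the highest of the 4 library pairs, and dashed lines are medians of the genes with at least 10 FPKM at GV. Ldhb stands at 8.98% in WT and 94.5% in null oocytes, while Tpi1 is near 1% in both. Without the ERCC factor the WT value of Pgam1, the null values of Ldhb and Gapdh and both values of Adpgk are above 100%.

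Shares of the total FPKM do not depend on the ERCC factor. The 10 genes made up 0.756% and 0.789% of the total in WT growing and 0.957% and 0.962% in null growing libraries. At GV the shares were 0.592% and 0.599% in WT and 0.650% and 0.790% in null oocytes. At MII they were 0.225% and 0.227% in WT and 1.37% and 1.36% in null oocytes. Null libraries lay above WT libraries at each stage, and Ldhb alone supplied 91.3% to 98.8% of each sum.

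The steps covered by other isozymes were led by Adpgk, Pkm2 and Ldhc. Adpgk, an ADP-dependent enzyme that catalyses the same phosphorylation of glucose as hexokinase, was listed between 11.4 and 62.5 FPKM over the 12 libraries. Hk2 stayed at or below 0.971 FPKM and Hk3 was listed at 0. Adpgk was lower in null growing oocytes at -0.52 ± 0.18 (limma adjusted p = 0.048) and in null GV oocytes at -0.83 ± 0.18 (limma adjusted p = 0.0042), and neither passed without the ERCC factor. Its genotype difference rose between GV and MII by 1.10 ± 0.26 (limma adjusted p = 0.0078), a call that was lost in unscaled FPKM, where the rise was 0.45 ± 0.25 (limma adjusted p = 0.23).

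Pkm2, the gene of the muscle-type pyruvate kinase that makes pyruvate and ATP in the last step of glycolysis, was listed at 2.28 and 3.47 FPKM in WT and 16.5 and 15.2 FPKM in null MII oocytes. The null level was 5.51-fold higher, with a log2 difference of 2.14 ± 0.22 (limma adjusted p = 1.6e-05), whereas at GV the values were 66.5 and 71.2 FPKM against 49.1 and 69.0 FPKM and did not pass. Pkm2 therefore had a genotype difference at MII that exceeded the one at GV, by 2.37 ± 0.31 (limma adjusted p = 0.00017). Of its 50-base windows, 42.1% occur elsewhere in the genome.

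Ldhc, a lactate dehydrogenase subunit best known from the male germ line, was listed at 61.8 and 49.3 FPKM in WT and at 208 and 184 FPKM in null growing oocytes. The null libraries were 3.53-fold higher, with a log2 difference of 1.81 ± 0.16 (limma adjusted p = 2.2e-05), and Ldhc made up 4.01% and 3.98% of all lactate dehydrogenase FPKM there against 1.36% and 1.05% in WT oocytes. Ldhc was also higher in null oocytes at GV (0.60 ± 0.16, limma adjusted p = 0.012) and at MII (0.74 ± 0.16, limma adjusted p = 0.0044). Ldha, the subunit most somatic tissues use, was at most 1.24 FPKM in any library.

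Outside the 10 genes, 64 genes of glucose metabolism were listed in 6 groups and 36 of them were tested. In null oocytes 7 were called higher and 7 lower while growing, 2 higher and 10 lower at GV, and 8 higher and 4 lower at MII, beside 10.6% and 24.4%, 2.83% and 40.6%, and 21.5% and 10.3% of all genes. Their median log2 differences were -0.15, -0.28 and 0.15 against -0.16, -0.38 and 0.06 for all genes.

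Among the 7 tested glycolytic isozyme genes, Pkm2 included, 1 was called higher and 2 lower in growing, 1 higher and 1 lower in GV, and 2 higher and none lower in MII null oocytes. Among 8 tested regulators the counts were 2 higher and 2 lower, then 0 higher and 3 lower, then 2 higher and 1 lower. The 2,3-bisphosphoglycerate mutase gene Bpgm, whose enzyme diverts a glycolytic intermediate into a side branch, was the most abundant of them at 436 to 1199.5 FPKM and was not called at any stage. Pfkfb1, which makes or removes the activator of phosphofructokinase, was higher in null growing oocytes at 0.72 ± 0.20 (limma adjusted p = 0.018) and at MII at 1.03 ± 0.20 (limma adjusted p = 0.0023). Its relative Pfkfb2 was lower in growing oocytes at -0.98 ± 0.14 (limma adjusted p = 0.00039). Hif1a, the hypoxia-responsive transcription factor that induces glycolytic genes, was lower at each stage, at -0.59, -0.97 and -0.57 (limma adjusted p = 0.027, 0.0017 and 0.033), and only the MII difference passed without the ERCC factor.

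The 7 tested transport genes gave 1 higher and 2 lower in growing, 0 higher and 2 lower in GV, and 2 higher and 1 lower in MII null oocytes. Slc16a1, a monocarboxylate carrier for pyruvate and lactate, was listed at 8.98 and 7.69 FPKM in WT and 3.16 and 2.91 FPKM in null growing oocytes. At GV the means were 6.61 FPKM against 1.33 FPKM, and at MII the libraries held 1.44 and 1.56 FPKM against 0.356 and 0.288 FPKM. The null libraries lay below the WT libraries at each stage, with log2 differences of -1.21, -1.71 and -0.92 (limma adjusted p = 5.9e-05, 9.1e-06 and 0.00018), and all of these calls held without the ERCC factor. Bsg, the chaperone that carries such transporters to the membrane, was higher at MII at 1.85 ± 0.18 (limma adjusted p = 1.3e-05), as was the mitochondrial pyruvate carrier subunit Mpc2, listed as Brp44, at 1.06 ± 0.20 (limma adjusted p = 0.0018). Slc2a1, the basal glucose transporter, was higher in null growing oocytes at 0.68 ± 0.23 (limma adjusted p = 0.037), and the transporter gene Slc2a12 was lower there at -0.94 ± 0.17 (limma adjusted p = 0.0019).

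In the pentose phosphate pathway, which makes NADPH, 2 of 8 tested genes were higher in growing, 1 lower in GV and 2 higher in MII null oocytes. Rpe, the ribulose-phosphate epimerase, was higher in growing oocytes at 1.68 ± 0.22 (limma adjusted p = 0.00025) and at MII at 1.25 ± 0.22 (limma adjusted p = 0.0012). Pgls, the lactonase of the pathway, was higher at MII at 1.74 ± 0.21 (limma adjusted p = 6.7e-05). Of 4 tested gluconeogenesis genes, G6pc3, a glucose-6-phosphatase, was higher in growing oocytes at 0.52 and at GV at 0.60 (limma adjusted p = 0.030 and 0.013), Pcx was lower at GV at -0.34 (limma adjusted p = 0.044) and none was called at MII. In unscaled FPKM Pcx at GV was at -0.19 and no longer passed (limma adjusted p = 0.52), whereas at MII all 4 passed (limma adjusted p from 0.00084 to 0.048). There G6pc3 at 1.03, Fbp1 at 0.60 and Pcx at 0.58 were higher and Fbp2 at -0.87 was lower. Of all 11502 genes, 2831 were called higher and 2694 lower at MII in unscaled FPKM. In the glycerol phosphate branch Gpd1l was listed at 10.2 and 9.33 FPKM in WT against 2.82 and 3.06 FPKM in null growing oocytes. It was lower at every stage, at -1.45, -1.99 and -1.39 (limma adjusted p = 4.2e-05, 8.8e-06 and 1.9e-05), and Gpd2 was lower at GV and MII.

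**Figure D4:**
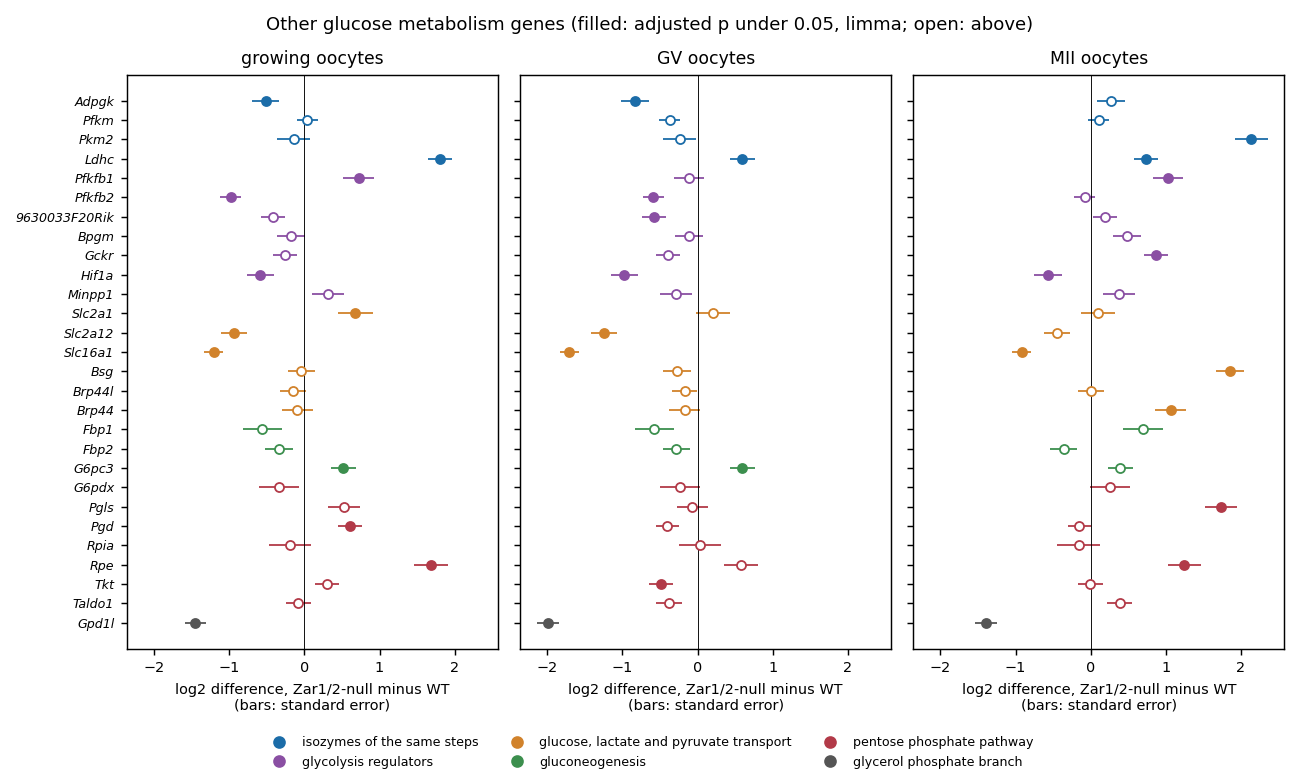
Difference between Zar1/2-null and WT oocytes in log2(FPKM + 1), ERCC-scaled, with standard errors, for the glucose metabolism genes outside the 10 members whose mean reached 1 FPKM, coloured by list. Filled points have a limma adjusted p under 0.05. Gpd1l and Slc16a1 are filled and below 0 at all 3 stages, and Ldhc is filled and above 0 at all 3. Without the ERCC factor Adpgk and Hif1a in growing oocytes and Adpgk, Pfkfb2, 9630033F20Rik, Hif1a and Tkt in GV oocytes no longer pass.

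How much of each transcript could be measured differed between the enzymes, because the reads were trimmed to 50 bases and only those with a single place in the genome were kept. Glycolytic genes have many processed pseudogenes. Every window of 50 bases of the transcript with the longest coding part was looked up in the mm9 genome, and windows with another exact copy outside the gene came to 92.9% for Pgk1, 91.9% for Pgam1, 85.6% for Gapdh and 72.4% for Eno1. They came to 34.5% for Ldhb, 32.5% for Gpi1, 24.3% for Tpi1 and 16.1% for Aldoa, and to 1.10% for Pfkp and 1.09% for Hk1. The levels of Pgk1, Pgam1, Gapdh and Eno1 thus rest on 126, 145, 197 and 545 windows, and are uncertain, as is the order of levels between enzymes. Whether this takes part in the genotype differences was not tested.

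**Figure D5:**
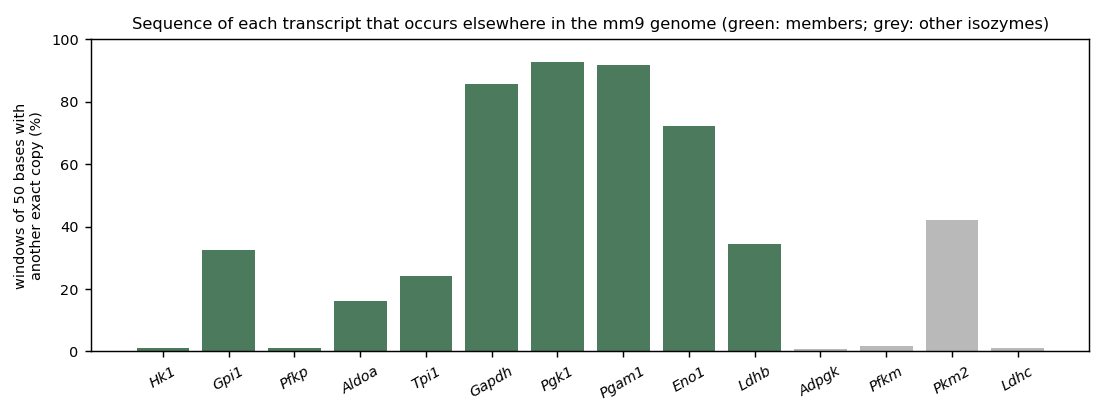
Percentage of all 50-base windows of each transcript that occur elsewhere in the mm9 genome, with the 10 members in green and other enzymes of the pathway in grey. Pgk1, Pgam1, Gapdh and Eno1 exceed 70%, while Hk1, Pfkp, Adpgk, Pfkm and Ldhc stay below 2%.

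On the mm9 assembly (NCBIM37), Ldhb lies on the minus strand at chr6:142438769-142456477, Gapdh on the minus strand at chr6:125111871-125116485 and Tpi1 on the minus strand at chr6:124760604-124764314. Pgam1 lies on the plus strand at chr19:41986361-41993154, Pfkp on the minus strand at chr13:6579014-6648023 and Pgk1 on the plus strand at chrX:103382439-103399038. The libraries were not stranded, and exons of Hk1, Gpi1, Pfkp and Tpi1 overlap those of 2210417K05Rik, Gm17327, Pitrm1 and Spsb2 on the other strand, so that reads from the overlap cannot be told apart.

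Since stored oocyte RNAs are often recruited through cytoplasmic polyadenylation elements (CPEs) in the 3′ UTR, the annotated 3′ UTRs were searched on the sense strand for TTTTAT and TTTTAAT, neither of which contains the other. Among the 10 members Pfkp held 5 matches and Pgam1 held 1, and the other 8 held none. Of 9779 expressed genes with a 3′ UTR of at least 100 bases, 60.4% held a match, with a median 3′ UTR of 906 bases, while those of Ldhb, Gapdh and Aldoa were 188, 178 and 183 bases long. None of these members had a match within the last 100 bases, where 19.97% of genes had. The match closest to the 3′ end is shown for both enzymes that were called in null GV oocytes, and for Adpgk, the isozyme with a match near the end, with the motif in capitals in 30 bases of mm9 sequence. They are Pfkp at chr13:6579106-6579135 on the minus strand, Pgam1 at chr19:41992409-41992438 on the plus strand and Adpgk at chr9:59163935-59163964 on the plus strand.
Pfkp: cctttggttggtTTTTATatggctaactga
Pgam1: ttcattgtagtaTTTTATcccctgcaccca
Adpgk: gtatatttattTTTTAATaaatcaagattt
The matches begin 110, 734 and 61 bases before the end of the 3′ UTR. The match in these letters is a description of the sequence and not a measured site.

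Genes other than the 10 members were ranked by likeness to Gapdh over the 12 libraries. The ranking left the members out and used the Gapdh values behind the choice of the pathway. Among 4320 such genes whose mean reached 10 FPKM, the largest Pearson correlations of log2(FPKM + 1) with Gapdh were 0.992 for Donson, 0.985 for Tmem184c, 0.985 for Ppme1, 0.982 for Adipor1 and 0.978 for Rims3. Being the largest of so many values, they do not show whether the pathway follows Gapdh. Among the other enzymes the values ran from 0.538 for Pgam1 to 0.912 for Eno1. All points share their library's ERCC factor and the fall from growing to ovulated oocytes, so high values are common.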

How the data were processed

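RNA of 12 samples of 10 oocytes was amplified by Smart-seq2 from oligo-dT primers with ERCC spike-in. Per the labels and the study's methods, the authors trimmed reads to 50 bases, mapped them to mm9 with TopHat2 2.1.1, kept uniquely mapped reads, computed FPKM with Cufflinks 2.2.1 on UCSC gene models and multiplied each library by an ERCC factor. The deposited FPKM are these scaled values. The deposited table holds no read counts, so no counting interval is given. Dividing by the recovered factor returned 100% of values to 6 digits. FPKM were tested as log2(FPKM + 1) with limma 3.58.1 in R 4.3.3, with 6 group means, all 12 libraries and a trended variance, over the 11502 of 23230 genes that reached 1 FPKM somewhere. P-values were adjusted by Benjamini-Hochberg over these, with a threshold of 0.05, and the script was tested on simulated data. Fold changes on this scale understate those of low genes. A two-sided exact permutation test of 2 against 2 libraries cannot go below 0.333 and was not used. Genes named are the 10 members, other glucose metabolism genes from fixed lists, mainly those whose mean reached 1 FPKM, and Zar1 and Zar1l. The 5 genes most like Gapdh outside the members are also named. The members and lists were chosen with earlier results of these data known. Alternatives were other scalings, filters and pseudocounts, a replicate block, a 3-fold rule on group means and leaving out each library. Sequences came from the mm9 genome and its annotation.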

Additional observations from a re-analysis of the deposited data

Results flagged for a closer look

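These 6 values stood out because the difference between null and WT oocytes was itself different between stages, by the interaction term of limma with Benjamini-Hochberg adjustment over all genes. Between growing and GV oocytes the genotype difference moved by -1.31 for Pgam1 (limma adjusted p = 0.0033) and by -1.21 for Ldhc (limma adjusted p = 0.0082). Between GV and MII it moved by 3.39 for Ldhb (limma adjusted p = 1.8e-06), by 2.37 for Pkm2 (limma adjusted p = 0.00017), by 1.10 for Adpgk (limma adjusted p = 0.0078) and by 0.90 for Pfkp (limma adjusted p = 0.0042). The shift for Adpgk was lost without the ERCC factor, at 0.45 (limma adjusted p = 0.23). In the same tests 11.3% of all genes moved down from growing to GV and 33.9% moved up from GV to MII. Groups of 2 libraries are too small for a check of single outlying libraries.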

How the results depend on the processing

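Without the ERCC factor the count of enzymes called higher in null oocytes became 2 in growing and 2 in GV oocytes and that of lower ones in GV oocytes 1, and with scaling to the median gene the GV counts were 2 higher and 1 lower. Over all 11502 genes these counts were 1711, 827 and 1554 without the factor, and 1075 and 1059 with median scaling. The count lower at GV was also 1 with the mean of the ERCC factors per group, with a pseudocount of 0.1 FPKM, with no filter, with only the libraries of the comparison and by the 3-fold rule, and 0 among genes whose mean reached 5 FPKM. In the same order, all genes gave 5025, 4206, 4742 of 18932, 2949, 483 and 2494 of 5966. The count higher at MII was 5 with the mean ERCC factors and with a pseudocount of 0.1 FPKM, and 1 by the 3-fold rule, where all genes gave 2620, 3353 and 862. The count lower at MII was 0 with the filter at 5 FPKM, which removed Pgam1 from the test, and 0 by the 3-fold rule. All genes gave 920 of 5966 and 152. From growing to GV oocytes the count of lower genes in WT was 1 without the ERCC factor and 1 with median scaling, 5 with a pseudocount of 0.1 FPKM, 5 with only these libraries and 0 by the 3-fold rule, and in null oocytes 3, 2 and 2 without the ERCC factor, with median scaling and by the 3-fold rule. All genes gave 372, 263, 2167, 1952 and 89 in WT, and 2455, 1625 and 829 in null oocytes. From GV to MII 1 gene was called higher in WT without the ERCC factor and 1 with median scaling, which left 5 lower, and in null oocytes 1 and 2 were called higher. All genes gave 2267, 4792 and 3655 in WT, and 2248 and 4415 in null oocytes. For the change of the genotype difference, the filter at 5 FPKM left 0 lower from growing to GV and 1 higher from GV to MII, and 1 gene, Pgam1, was called lower from GV to MII without the ERCC factor, 1 with median scaling and 1 with the pseudocount of 0.1 FPKM. All genes gave 251 and 2706 of 5966 with the filter, and 743, 1720 and 89 in the last 3 settings. The cause of each change beyond fewer genes tested was not tested.

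With each library left out in turn the count lower at GV ran from 1 to 2, the count higher at MII from 1 to 6, the count lower in WT from growing to GV from 1 to 8, and the count higher for the change from GV to MII from 2 to 4. The shares of total FPKM with Mir and Snor genes taken out of the total were 0.979% in null growing, 0.616% in WT GV, 0.230% in WT MII and 1.40% in null MII oocytes.

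Log2 differences between genotypes that changed sign were mostly small and not called. From GV to MII some were large and called after turning positive with median scaling. These were Pgam1 in WT (limma adjusted p = 4.5e-05) and Gapdh and Ldhb in null oocytes (limma adjusted p = 0.00055 and 1.1e-05). With the ERCC factor Pgam1 in WT and Gapdh in null oocytes had been called lower. Without the ERCC factor the genotype difference was 0.080 for Gpi1 and 0.11 for Pgam1 in growing oocytes, 0.35 for Gpi1, 0.44 for Tpi1, 0.12 for Eno1 and 0.35 for Ldhb at GV, and -0.12 for Tpi1 at MII. From GV to MII it was 0.52 for Pgam1 in WT and 0.060 for Gapdh and 0.98 for Ldhb in null oocytes. With median scaling these were 0.0091 for Pgam1 in growing oocytes, 0.49 for Gpi1, 0.10 for Pfkp, 0.58 for Tpi1, 0.25 for Eno1 and 0.49 for Ldhb at GV, -0.24 for Tpi1 at MII, 1.38 for Pgam1 and 0.29 for Gapdh from GV to MII in WT, and 0.73 for Gapdh and 1.66 for Ldhb in null oocytes. Tpi1 at GV gave 0.019 by the 3-fold rule. With each library left out in turn, the genotype difference in growing oocytes ran from -0.43 to 0.022 for Gpi1, -0.059 to 0.15 for Tpi1, -0.028 to 0.13 for Eno1 and -0.042 to 0.13 for Ldhb. At GV it ran from -0.37 to 0.20 for Gpi1, -0.093 to 0.58 for Aldoa, -0.32 to 0.30 for Tpi1, -0.72 to 0.17 for Eno1 and -0.27 to 0.063 for Ldhb, and at MII from -0.16 to 0.24 for Tpi1. The difference of Ldhb from GV to MII in null oocytes ran from -0.25 to 0.090.

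The replicate numbers were not taken as pairs, since deviations of same-numbered libraries correlated between -0.11 and 0.194. The ERCC factors, however, appear to be taken against the WT growing library of the same number. A fit with the replicate number as a block changed no call: 2 enzymes remained lower at GV, 3 higher and 1 lower at MII, and Ldhb stayed at 3.29 at MII.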
